A study of Mus musculus with 12 samples.

Results

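The Id and Hes/Hey transcription regulators examined here are 9 genes, Id1, Id2, Id3, Id4, Hes1, Hes5, Hes6, Hey1 and Hey2. They are a chosen list from these families, set with earlier results of these data known, and not the whole families. Heyl, Hes2, Hes3 and Hes7 were also measured but are not members. All 9 were among the 19938 genes that the array measured with a single gene symbol, each by 1 probe set. Total RNA came from the hippocampus and the olfactory bulb of adult C57BL/6 mice, 3 wild type (WT) and 3 labelled as knockout of GRF2 (RasGRF2), an exchange factor that activates Ras and Rac proteins in neurons. Each of the 12 samples was hybridised to its own array, so that the 4 groups of genotype and tissue hold 3 arrays each. The mice were kept in a conventional facility with exposure to common pathogens. Neither the deleted exons nor the littermate status of the controls is stated in the labels.

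Id proteins are helix-loop-helix factors without a DNA-binding region. They pair with E proteins such as Tcf3, Tcf4 and Tcf12 and so keep them from proneural partners, and bone morphogenetic protein (BMP) signals acting through Smad proteins are a main inducer of Id genes. Hes and Hey proteins bind DNA as repressors, recruit Groucho corepressors (Tle genes), and are the classical targets of Notch receptors acting through the DNA-binding protein Rbpj; Hes6 differs in that it opposes Hes1 and favours neuronal differentiation. In the adult brain these factors are known for holding stem cells of the dentate gyrus and subventricular zone in an undifferentiated and often quiescent state, and several are also made by astrocytes, endothelial cells or neurons. The study asked how the loss of RasGRF2 bears on dentate gyrus stem cells that express nestin and on their path to young neurons, the setting in which these regulators act.

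Promoter sequence is shown for the 3 genes on which the results below turn most and for which a sequence was at hand: Id4, the member that passed the knockout test, Hey2, with the largest difference between the tissues, and Hes5, a Notch target of neural stem cells. Each is the 250 bases before the annotated start, from RefSeq on GRCm38.p6, read 5′ to 3′ on the gene's strand. Capitals mark the core of the Rbpj recognition sequence, TGGGAA, or its reverse complement. Id4 lies at chr13:48260866-48261115 (+), Hes5 at chr4:154960673-154960922 (+) and Hey2 at chr10:30842784-30843033 (-).
Id4: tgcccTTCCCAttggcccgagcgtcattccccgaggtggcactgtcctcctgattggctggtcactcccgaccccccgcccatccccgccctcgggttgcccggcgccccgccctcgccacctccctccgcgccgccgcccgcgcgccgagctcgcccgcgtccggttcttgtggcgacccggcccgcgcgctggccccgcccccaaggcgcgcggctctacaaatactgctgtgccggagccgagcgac
Hes5: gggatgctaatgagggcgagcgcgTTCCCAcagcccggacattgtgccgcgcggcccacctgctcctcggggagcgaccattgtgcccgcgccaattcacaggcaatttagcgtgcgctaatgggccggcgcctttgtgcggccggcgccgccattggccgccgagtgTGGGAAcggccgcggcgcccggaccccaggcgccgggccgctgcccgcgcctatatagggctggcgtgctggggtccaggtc
Hey2: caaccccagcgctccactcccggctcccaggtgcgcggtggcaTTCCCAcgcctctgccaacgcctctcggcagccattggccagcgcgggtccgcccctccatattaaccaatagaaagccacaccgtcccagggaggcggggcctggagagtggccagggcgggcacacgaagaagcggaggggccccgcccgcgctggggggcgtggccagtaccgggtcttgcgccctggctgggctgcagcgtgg

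Sequences were found for 6 of the 9 members, and Id1, Hes1 and Hey1 were not among them. The Rbpj core occurred once in Id4, 245 bases before the start, and once in Hey2, 207 bases before it. Hes5 held it at 2 places, 226 and 82 bases before the start. It was not found in the windows of Id2, Id3 and Hes6. In comparison, 21.6% of 32851 RefSeq promoter windows of the same length held it on either strand. In Id4 the match shares 1 base with a CCAAT match (CCAAT occurs in 33.8% of windows). The Smad element GGCGCC was found once each in Id4 and Id2 and at 4 places in Hes5, against 9.59% of all windows. The N box CACNAG, to which Hes proteins can bind, was found once in Id4, 82 bases before the start, and once in 1 of the 2 windows of Hes6, 237 bases before it, against 36.7% of windows. G and C made up 75.6% of the Id4 window and 71.6% of both the Hes5 and the Hey2 windows, against a median of 52.4%. These matches describe letters only.

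Values are on the log2 scale of RMA, which corrects background, quantile-normalises arrays and summarises probes; a difference of 1 is a 2-fold change. Array medians lay between 6.82 and 6.89 in hippocampus and between 6.93 and 6.96 in olfactory bulb. Levels were not compared between genes, because probe sets differ in brightness. The tissues carried their markers: Prox1 and Neurod6, of granule and pyramidal neurons, averaged 9.92 and 10.33 in hippocampus against 6.64 and 6.29 in bulb, and Th and Eomes, of bulb neurons, averaged 11.05 and 9.81 in bulb against 6.49 and 5.51 in hippocampus. Spink8, a CA1 marker, was low in both, at 5.97 and 5.01. Rasgrf2 itself was lower in knockout by 0.58 in hippocampus (limma adjusted p = 0.00197). Its difference of -0.14 in bulb, without overlap of the groups, did not pass (adjusted p = 0.532). In the mean of the tissues it passed, at -0.36 (adjusted p = 0.00822). The probe set may lie outside the deletion, which was not tested. In bulk tissue, fewer cells of a type and less RNA per cell cannot be told apart.

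Among the 9 regulators, Id4 stood lower in knockout mice in both tissues, and it was the one member whose change passed the test after adjustment over all genes. Id4 fell by 0.34 in olfactory bulb, or 1.27-fold, and by 0.29 in the mean of both tissues, or 1.22-fold; the hippocampal difference was -0.24, or 1.18-fold, and did not pass. In hippocampus 0 of 9 members passed limma's test at an adjusted p under 0.05 (0.256% of all genes did), and 2 of 9, Id4 and Hey2, had an unadjusted p under 0.05, as did 8.91% of all genes. In olfactory bulb 1 of 9 passed, against 0.411% of all genes, and Hey1 was the other member with an unadjusted p under 0.05 (11.3% of all genes). In the mean of both tissues of each animal 1 of 9 passed, against 0.577%. No member passed the test of a difference between the tissues in the knockout effect (0 of 9, 0.015% of all genes), where Hey2 alone had an unadjusted p under 0.05 (10.7% of all genes).

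The groups of 3 did not overlap for some members. In hippocampus Id4, Hes1 and Hey2 were lower in every knockout array than in any wild-type array, 3 of 9, where 3.66% of all genes showed this. None was higher in that way, against 9.39%. For Hes1 the separation was marginal, with the closest arrays at 7.4309 in knockout and 7.4316 in wild type (limma unadjusted p = 0.297). Of the hippocampal Hey2 values, 0 of 3 in knockout and 2 of 3 in wild type lay above their array median. In bulb Id4 was lower without overlap and Hey1 higher, 1 of 9 each, against 8.87% and 8.22% of all genes. In the mean of the tissues Id4 was again lower and Hey1 higher without overlap, 1 of 9 each, against 5.82% and 9.32%. The median size over the members was 0.117 in hippocampus and 0.109 in bulb, against 0.0745 and 0.0791 over all genes.

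**Figure D1:**
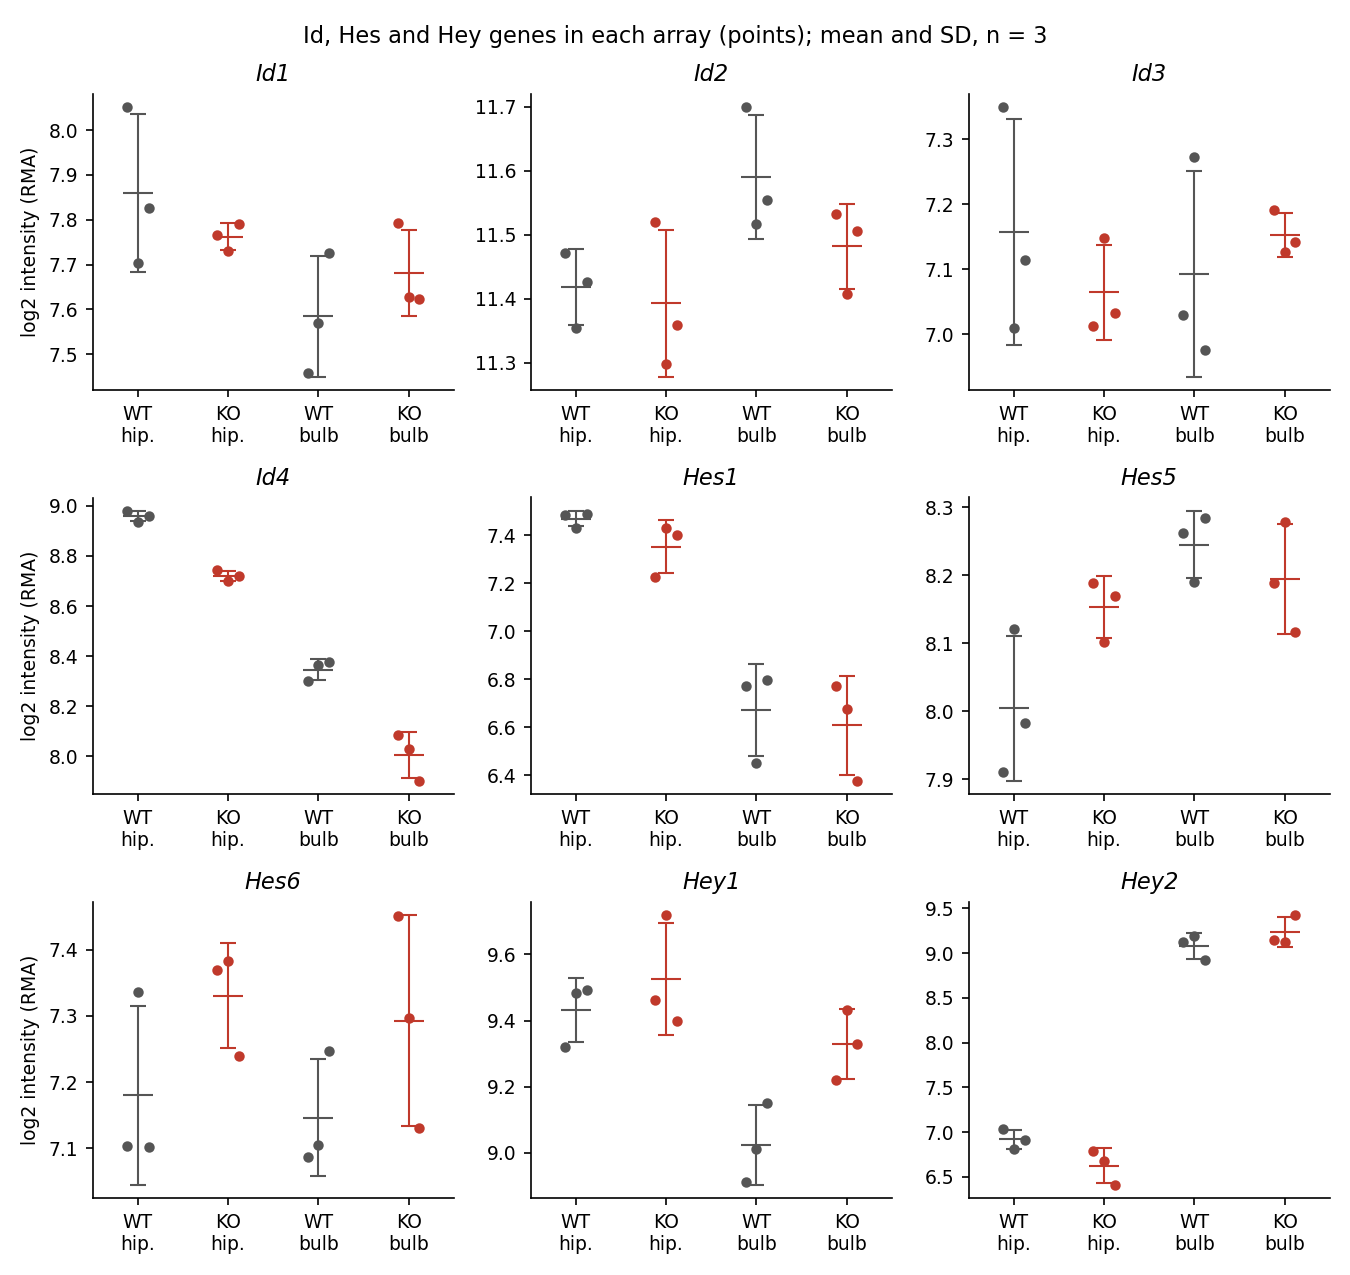
Log2 RMA intensity (vertical axes, one scale per gene) of each of the 9 genes in wild-type (WT, grey) and knockout (KO, red) hippocampus (hip.) and olfactory bulb; points are arrays, the long bar the mean and the whiskers the SD of 3 arrays. Id4 is lower in knockout in both tissues without overlap, and the hippocampus minus bulb difference of Hey2 in wild type is -2.16.

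Id4, the Id protein known for keeping adult hippocampal stem cells quiescent, gave tight values in hippocampus, where it read 8.98, 8.94 and 8.96 in wild-type replicates 1 to 3 and 8.74, 8.70 and 8.72 in knockout replicates 4 to 6. All 3 knockout arrays lay under all wild-type arrays, and the arrays of a genotype lay within 0.05 of each other. The means were 8.96 ± 0.021 (SD, n = 3) and 8.72 ± 0.021, a difference of -0.24 (SE 0.065, 95% interval -0.38 to -0.10, limma adjusted p = 0.258). In olfactory bulb Id4 read 8.30, 8.36 and 8.38 in wild type and 8.08, 8.03 and 7.90 in knockout. Again every knockout array was lower than every wild-type array. The means were 8.35 ± 0.042 and 8.01 ± 0.093, a difference of -0.34 (SE 0.065, 95% interval -0.48 to -0.20, adjusted p = 0.0375).

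The knockout effect on Id4 was not distinguishable between the tissues, with a difference of effects of 0.10 (SE 0.092, 95% interval -0.09 to 0.30, adjusted p = 0.684). Averaged over the tissues of each animal, Id4 read 8.67, 8.62 and 8.67 in the wild-type animals and 8.41, 8.37 and 8.31 in the knockout animals. The 3 knockout animals lay below the 3 wild-type animals, and the difference was -0.29 (SE 0.051, adjusted p = 0.0269). The Id4 call rested on all of the arrays: without any one of the 6 bulb arrays its adjusted p in bulb rose to between 0.0604 (without knockout replicate 4) and 0.195 (without knockout replicate 6), and with only the bulb arrays in the model it was 0.151. Without any one of the animals the adjusted p of the mean of the tissues was between 0.0678 and 0.127, while the difference in Id4 stayed between -0.31 and -0.26.

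Id4 lies on chromosome 13, the chromosome that also carries Rasgrf2, with 275 measured genes between them. Of the 10 measured genes nearest to Id4, 5 on each side, 0 passed the knockout test in hippocampus, in bulb or in the mean of the tissues. Of all genes 0.256%, 0.411% and 0.577% passed, so 0 of 10 does not set these neighbours apart from other genes. Whether the shared chromosome bears on the Id4 difference was not tested. Among them Dek changed by -0.09 in hippocampus and 0.15 in bulb, Rnf144b by -0.10 and -0.06, and Zfp169 by 0.0015 and 0.04. Kdm1b, a histone demethylase gene, stood at 0.27 in bulb (adjusted p = 0.332) and at -0.01 in hippocampus. The neighbours' differences ran from -0.10 to 0.14 in hippocampus and from -0.28 to 0.27 in bulb, in both directions, and none was as low as that of Id4 in the same tissue. The -0.28 was that of a gene with a clone name, 2 places from Id4, lower in knockout bulb without overlap (limma adjusted p = 0.227). In hippocampus that gene stood at 0.05. Other neighbours not named here have clone or small RNA names.

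The other Id genes did not pass in either tissue. Id1, a BMP target also known from brain endothelium, read 8.05, 7.70 and 7.83 in wild-type hippocampus and 7.77, 7.73 and 7.79 in knockout. Wild-type replicate 1 was highest and the groups overlapped (difference -0.10, SE 0.093, adjusted p = 0.763). In bulb Id1 read 7.46, 7.57 and 7.72 in wild type and 7.79, 7.63 and 7.62 in knockout, a difference of 0.10 in the other direction (adjusted p = 0.719). Id3, which is often expressed beside Id1 in vessels, read 7.35, 7.01 and 7.11 in wild-type and 7.01, 7.15 and 7.03 in knockout hippocampus. Its highest value again came from wild-type replicate 1, and the difference was -0.09 (adjusted p = 0.779). In bulb Id3 differed by 0.06 (95% interval -0.14 to 0.26).

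The wild-type hippocampus array that read highest for Id1 and Id3 also had the highest mean of the endothelial markers, 8.0 against 7.77 and 7.88 in the other wild-type arrays, of the mural cell markers, 8.22 against 7.76 and 7.93, and of the meningeal fibroblast markers, 8.20 against 7.71 and 7.92. It was the highest of the 3 in 10 of 12 marker lists, all but those of hippocampal and bulb neurons. The widest gap was in choroid plexus markers, 7.74 against 7.09 and 7.12. Among the 10 was the list of neural stem cell markers, 8.57 against 8.42 and 8.47. The part of these cells in the Id1 and Id3 values was not tested. Without this array the hippocampal difference in Id1 was -0.0023 and that in Id3 0.0031.

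Id2, an Id gene that mature neurons also express, read 11.47, 11.35 and 11.43 in wild-type hippocampus and 11.52, 11.30 and 11.36 in knockout. These groups overlapped fully, with a difference of -0.03 (95% interval -0.19 to 0.14). In bulb Id2 read 11.70, 11.52 and 11.55 in wild type and 11.53, 11.41 and 11.51 in knockout, a difference of -0.11 (SE 0.077, adjusted p = 0.617), with overlap of a single pair of arrays.

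The Hes genes did not pass in either tissue. Hes1, the Notch target that represses proneural genes in an oscillating manner, read 7.49, 7.43 and 7.49 in wild-type hippocampus and 7.22, 7.43 and 7.40 in knockout. The closest pair of arrays from both groups agreed to the second decimal, and the difference was -0.12 (SE 0.108, adjusted p = 0.76). In bulb Hes1 read 6.77, 6.45 and 6.80 in wild type and 6.77, 6.68 and 6.38 in knockout, a difference of -0.06. All 6 bulb values of Hes1 lay below the median of their array.

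Hes5, which marks neural stem cells with active Notch, read 7.91, 8.12 and 7.98 in wild-type hippocampus and 8.19, 8.10 and 8.17 in knockout. A single pair of arrays overlapped, and the difference was 0.15 (SE 0.073, 95% interval -0.01 to 0.30, adjusted p = 0.58). In bulb Hes5 read 8.26, 8.19 and 8.28 in wild type and 8.19, 8.28 and 8.12 in knockout, a difference of -0.05. Hes6, the antagonist of Hes1, was 0.15 higher in knockout in both tissues, with adjusted p of 0.643 and 0.57. It read 7.10, 7.34 and 7.10 in wild-type hippocampus against 7.37, 7.38 and 7.24 in knockout, and 7.09, 7.10 and 7.25 in wild-type bulb against 7.45, 7.30 and 7.13. The groups overlapped in both tissues, through wild-type replicate 2 in hippocampus and wild-type replicate 3 in bulb. Hes6 averaged over the tissues differed by 0.15 (adjusted p = 0.479).

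Hey1, a Notch-induced repressor expressed in neural progenitors, read 8.91, 9.01 and 9.15 in wild-type bulb and 9.22, 9.43 and 9.33 in knockout. Every knockout array lay above every wild-type array. The difference of 0.30, or 1.23-fold, did not pass (SE 0.095, 95% interval 0.10 to 0.51, adjusted p = 0.261). In hippocampus Hey1 read 9.32, 9.48 and 9.49 in wild type and 9.46, 9.72 and 9.40 in knockout, with overlap and a difference of 0.10 (adjusted p = 0.775). Averaged over the tissues, Hey1 was 0.20 higher in knockout without overlap (adjusted p = 0.358).

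Hey2, its close relative, best known from the heart and arteries, read 7.03, 6.82 and 6.92 in wild-type hippocampus and 6.79, 6.68 and 6.41 in knockout. Knockout replicate 6 was lowest, and all knockout arrays lay below all wild-type arrays (difference -0.29, SE 0.110, 95% interval -0.53 to -0.06, adjusted p = 0.494). Of these 6 hippocampal values 4 lay below the median of their array, where RMA compresses differences. In bulb Hey2 read 9.12, 9.19 and 8.92 in wild type and 9.15, 9.12 and 9.42 in knockout, a difference of 0.15 with overlap (adjusted p = 0.618). The difference between these effects was -0.45 (SE 0.155, 95% interval -0.78 to -0.12) and did not pass over all genes (adjusted p = 0.388).

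**Figure D2:**
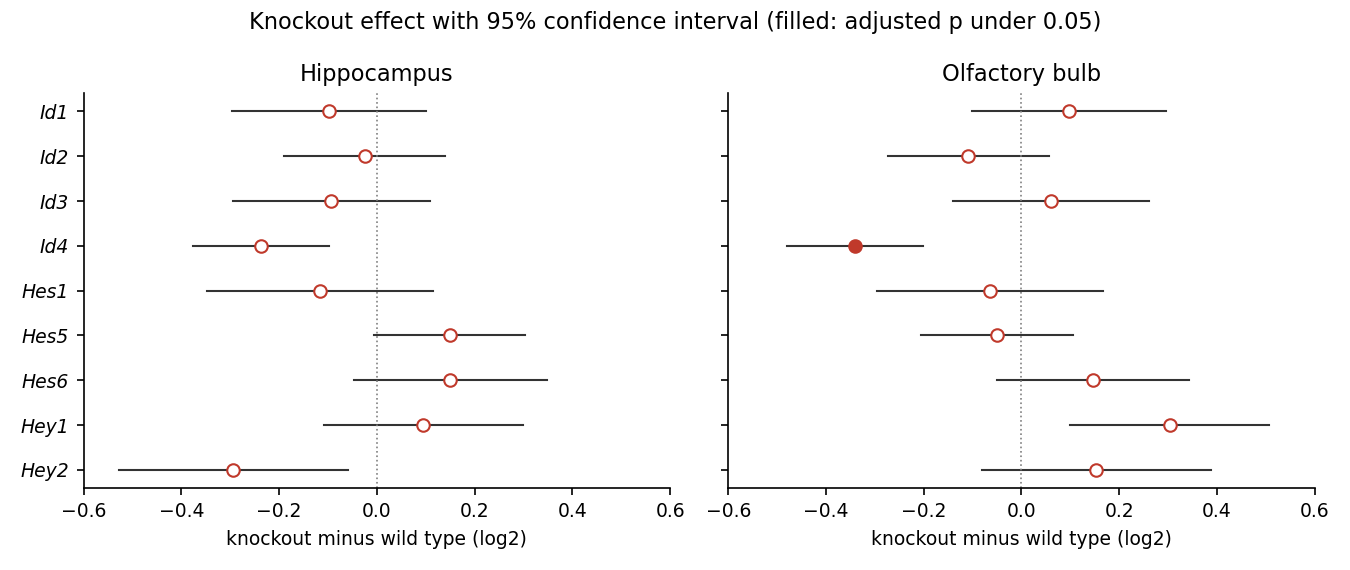
Knockout minus wild type on the log2 scale (horizontal axes) for each gene in hippocampus (left) and olfactory bulb (right), with 95% confidence intervals from limma; filled points passed at an adjusted p under 0.05. Id4 in bulb, at -0.34, is the one filled point.

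**Figure D3:**
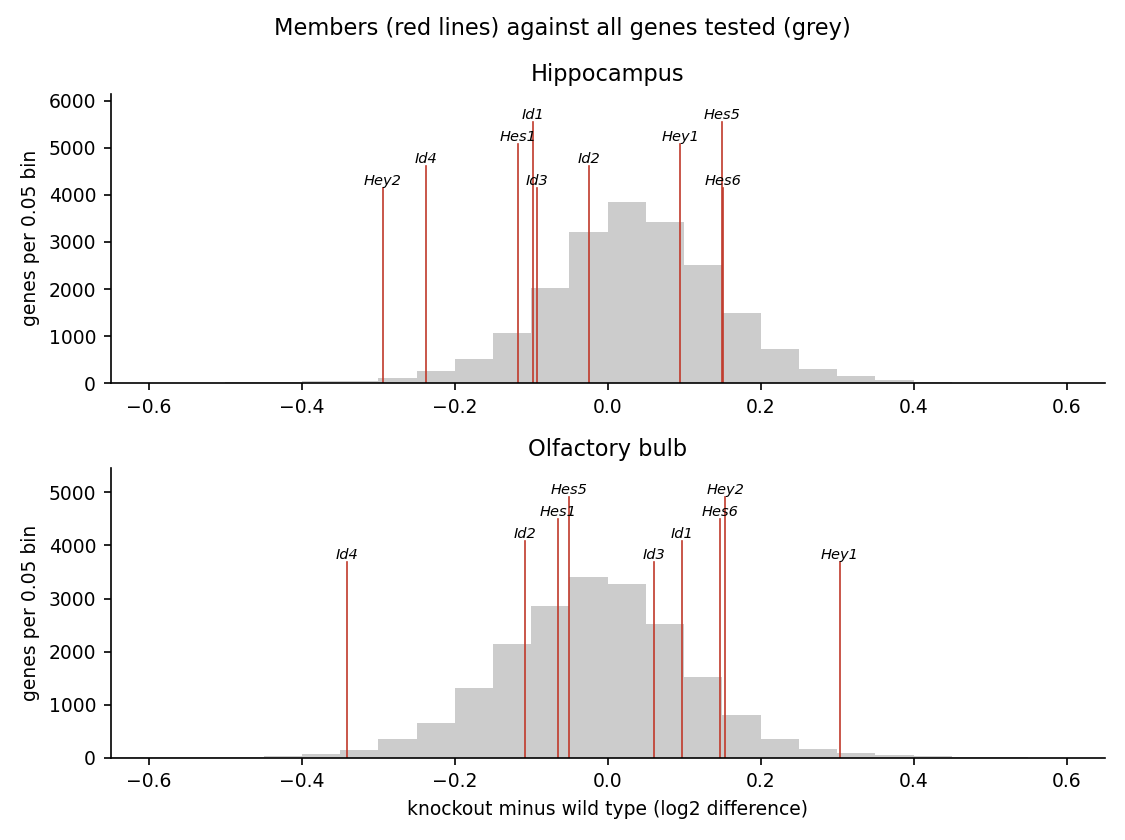
Knockout minus wild type of each member (red lines, labelled) over the distribution of all 19938 genes (grey bars, counts per 0.05 of log2 difference); 29 genes in hippocampus and 37 in olfactory bulb lie outside the range drawn. Id4 and Hey2 lie in the lower tail in hippocampus, and Id4 and Hey1 at opposite tails in bulb.

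Between the tissues more members passed than between the genotypes. In wild type 6 of 9 passed at an adjusted p under 0.05, where 40.9% of all genes did: Id4, Hes1, Hey1 and Id1 were higher in hippocampus, and Hey2 and Hes5 were higher in bulb. In knockout 3 of 9 passed, Id4 and Hes1 higher and Hey2 lower in hippocampus, where 39.1% of all genes passed. The median size of the members' difference was 0.28 in wild type and 0.09 in knockout, against 0.18 and 0.17 over all genes, so that the knockout value lay below the 0.117 and 0.109 of the knockout comparisons.

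Hey2 had the largest difference between the tissues among the members. Wild-type arrays lay between 8.92 and 9.19 in bulb and between 6.82 and 7.03 in hippocampus. The difference, hippocampus minus bulb, was -2.16 in wild type, or 4.46-fold (SE 0.110, adjusted p = 4.99e-10), and -2.61 in knockout, or 6.08-fold (adjusted p = 6.75e-11). In each of the 6 animals Hey2 was lower in hippocampus than in the bulb of the same animal, with differences of -2.30 to -2.01 in wild type and -3.01 to -2.36 in knockout. The lowest of these, -3.01, was that of knockout replicate 6.

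Hes1 was higher in hippocampus by 0.80 in wild type, or 1.74-fold (SE 0.108, adjusted p = 2.46e-05), and by 0.74 in knockout (adjusted p = 4.83e-05). Within animals its difference ran from 0.45 to 1.04 and was positive in 6 of 6. Id4 was higher in hippocampus by 0.61 in wild type, or 1.53-fold (SE 0.065, adjusted p = 1.94e-06), and by 0.72 in knockout (adjusted p = 3.47e-07). The difference of Id4 within animals ran from 0.58 to 0.82, positive in 6 of 6 and the narrowest of the large differences. Hey1 was higher in hippocampus by 0.41 in wild type (SE 0.095, adjusted p = 0.00285), while its 0.20 in knockout did not pass (adjusted p = 0.116); within animals it was positive in 6 of 6, from 0.07 to 0.57. That Hey1 passed in 1 genotype does not show a genotype difference, since the test of the difference of effects gave -0.21 (adjusted p = 0.581).

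Id1 was higher in wild-type hippocampus by 0.28 (adjusted p = 0.0269), but this call did not hold without wild-type bulb replicate 1 (adjusted p = 0.112), wild-type bulb replicate 2 (0.0666) or wild-type hippocampus replicate 1 (0.146), with only the wild-type arrays in the model (0.0579), with every probe set tested (0.0501) or with the title numbers as a block (0.0507). In knockout Id1 differed by 0.08 (adjusted p = 0.531). Hes5 was lower in wild-type hippocampus, at -0.24 (adjusted p = 0.0149), in 3 of 3 wild-type animals. Without wild-type hippocampus replicate 1 or 3 the adjusted p of Hes5 was 0.0762 and 0.0503, and with arrays centred on their medians it was 0.184. In knockout Hes5 differed by -0.04 (adjusted p = 0.698). Id2 was lower in hippocampus in 6 of 6 animals, with differences of -0.35 to -0.01, and did not pass in wild type (-0.17, adjusted p = 0.0894). Id3 and Hes6 were each positive in 3 of 6 animals, with differences in wild type of 0.07 (95% interval -0.14 to 0.27) and 0.03 (95% interval -0.16 to 0.23).

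**Figure D4:**
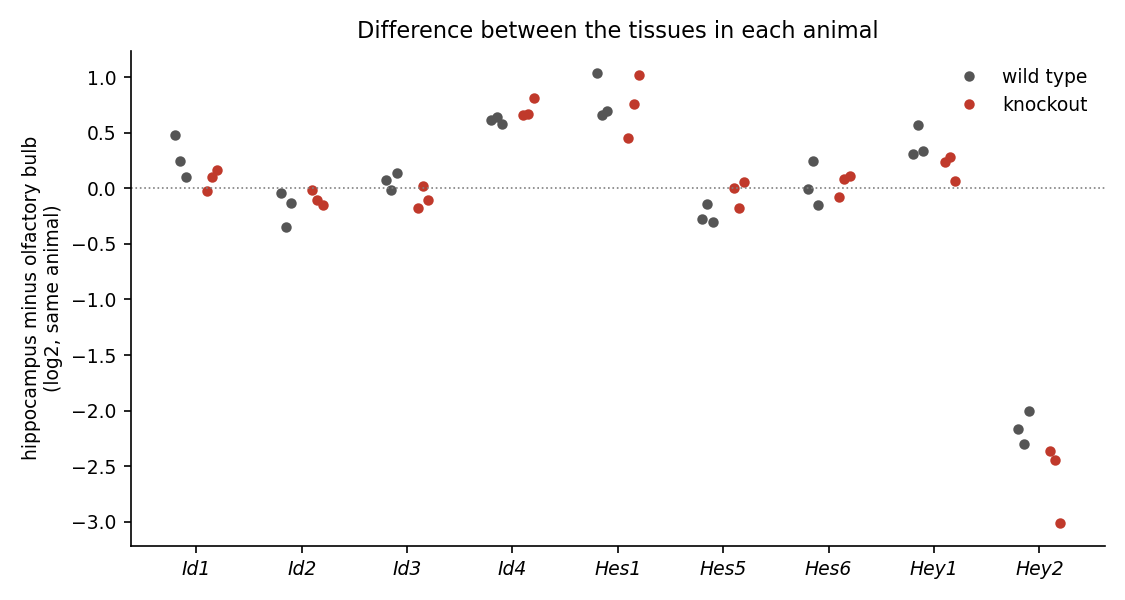
Hippocampus minus olfactory bulb of the same animal (vertical axis, log2) for each gene; grey points are the 3 wild-type and red points the 3 knockout animals. Hey2 lies between -3.01 and -2.01, and Id4, Hes1 and Hey1 lie above 0 in 6 of 6 animals.

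The genes around these regulators were taken from 11 lists, of which 116 of 120 entries were measured. In the knockout comparisons 0 of 116 passed limma's test in hippocampus, in bulb or in the difference of effects, with 9, 15 and 14 at an unadjusted p under 0.05. These counts are near the background, since 8.91%, 11.3% and 10.7% of all genes had such a p. Among BMP ligands, which induce Id genes, 0 of 9 passed in either tissue, with 5 of 9 negative and a median of -0.03 in hippocampus and 6 of 9 negative and a median of -0.15 in bulb. Bmp4, a niche ligand of adult stem cells, stood at -0.48 in bulb (adjusted p = 0.326) and -0.14 in hippocampus, and Bmp2 at 0.02 and 0.22. BMP receptors and Smads had medians of -0.02 in hippocampus and -0.03 in bulb, and BMP inhibitors 0.09 and 0.03. Of the Notch ligands, Dll1 stood at 0.09 in hippocampus and -0.07 in bulb. Jag2, picked out after its values were seen, stood at 0.35 in bulb and 0.28 in the mean of the tissues (adjusted p = 0.239 and 0.0636). Notch receptors and processing genes had medians of -0.03 and -0.01, with Notch1 at 0.03 and 0.09. The E proteins and proneural factors, the partners that Id proteins hold back, had medians of 0.04 in hippocampus and -0.03 in bulb, with 0 of 14 past the test.

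Averaged over the tissues, 2 of 116 entries passed limma's test, against 0.577% of all genes. An unadjusted p under 0.05 was found for 13, against 9.93% of all genes. Both that passed came from the list of 13 neural stem cell markers. Vim, an intermediate filament of radial glia and other glial and vascular cells, changed by -0.43 (adjusted p = 0.037). Tnc, an extracellular matrix protein of the stem cell niche, changed by -0.27 (adjusted p = 0.0418). Neither call held throughout: without single animals the adjusted p reached 0.177 for Vim (without knockout animal N390) and 0.19 for Tnc (without wild-type animal N135), with tissues joined by title number it was 0.0546 and 0.0837, and with every probe set tested 0.181 and 0.126. Of this list 12 of 13 were negative, with a median of -0.11 against 0.01 over all genes. Nes, which encodes nestin, stood at 0.17 in hippocampus and -0.31 in bulb, and Gfap at -0.09 and -0.33. None of these passed. The Nes means in bulb, 5.64 in knockout and 5.95 in wild type, lay below the array medians of 6.93 to 6.96, and the groups overlapped. The mean of the list in bulb was 8.71 to 8.73 in the knockout arrays and 8.82 to 8.95 in the wild-type arrays, and in hippocampus 8.35 to 8.44 and 8.42 to 8.57. The list thus stood lower in the knockout arrays of the bulb, as Id4 did. Endothelial and oligodendrocyte precursor means were also lower in these arrays, and the mean of bulb neuron markers was higher. The list is not specific to stem cells, since Slc1a3 is also an astrocyte marker and Fabp7 an ensheathing glia marker here. The part of the list in the Id4 difference was not tested.

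Markers of the cells that make Id and Hes transcripts were read in the same arrays. The mean of 10 astrocyte markers overlapped between genotypes, at 10.04 to 10.10 in knockout and 9.99 to 10.07 in wild-type hippocampus and at 9.92 to 9.98 and 9.88 to 10.02 in bulb, with 0 of 10 past the test in either tissue. The mean of 9 endothelial markers was 7.89 to 7.96 in knockout and 8.0 to 8.12 in wild-type bulb, with 8 of 9 negative, a median of -0.09 and 0 of 9 past the test. In hippocampus 9 of 9 endothelial markers were negative (median -0.13), at 7.70 to 7.82 in knockout against 7.77 to 8.0. The mean of 6 oligodendrocyte precursor markers was also lower in bulb, at 7.85 to 7.92 in knockout against 8.0 to 8.07, with 0 of 6 past the test. Of 8 bulb neuron markers 1 passed in bulb, Dlx5, a homeobox factor of bulb interneurons, which rose by 0.84 (adjusted p = 0.00117). The mean of this list was higher in every knockout array than in any wild-type array, at 9.74 to 9.80 against 9.54 to 9.61 in bulb and at 6.70 to 6.77 against 6.55 to 6.67 in hippocampus, with 7 of 8 positive in each tissue. The bulb mean includes the rise of Dlx5, while the median difference over the list was 0.12 in each tissue. In hippocampus these means lay below the array medians of 6.82 to 6.89. Of 6 meningeal fibroblast markers 6 were negative in bulb (median -0.17, 0 past the test), at a mean of 7.68 to 7.77 in knockout against 7.73 to 8.06. Of 77 marker entries 0 passed in hippocampus and Dlx5 alone in bulb, with 10 and 14 at an unadjusted p under 0.05 (8.91% and 11.3% of all genes). In hippocampus 7 of 7 oligodendrocyte markers were positive in knockout (median 0.28), at a mean of 9.07 to 9.44 against 8.99 to 9.14 in wild type. The part of these cell types in the differences of Id4, Hey1 and Hey2 was not tested.

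Between the tissues many entries of the pathway lists differed, mostly as lower values in hippocampus. These lists hold target, proneural, stem cell, cell cycle and immature neuron genes beside the genes upstream of the members. In wild type 14 of 116 entries passed higher and 61 lower, where 17.5% and 23.4% of all genes did. BMP ligands passed as lower in 7 of 9 and higher in 0, with Bmp6 at -1.44, Bmp7 at -1.41, Bmp5 at -1.19 and Bmp4 at -0.69. BMP receptors and Smads passed as lower in 8 of 10, among them Smad5 (-0.97), Acvr1 (-0.59), Smad9 (-0.56) and the receptor Bmpr1a (-0.47). The BMP inhibitors went both ways, with Chrd (1.62) and Nbl1 (1.29) higher and Chrdl1 (-1.93) and Grem1 (-0.80) lower, 2 and 6 of 10. Against these, the BMP targets Id4 and Id1 were higher in wild-type hippocampus, and Id2 and Id3 did not pass.

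On the Notch side, ligands passed as lower in 4 of 6, with Dll1 at -0.72, Dner at -0.62, Jag2 at -0.42 and Jag1 at -0.20. Jag1 did not pass with the animal or the title number as a replicate block (adjusted p = 0.0639 and 0.0716), with trend and robust moderation (0.06), with array weights (0.0538), with arrays centred on their medians (0.397), or without wild-type hippocampus replicate 2 (0.131) or 3 (0.0738) or wild-type bulb replicate 2 (0.088) or 3 (0.0831). Among receptors and processing genes Notch2 (-0.81) and the Notch inhibitor Numb (-0.80) were lower and Numbl (0.64) and the fringe gene Rfng (0.41) higher, 3 higher and 7 lower of 17. Of the nuclear factors the coactivator Maml3 (-1.50) and the corepressors Tle3 (-0.78) and Tle2 (-0.60) were lower and Tle1 (0.85) higher, 2 higher and 6 lower of 10. Other target genes of these pathways passed in 1 of 9 as higher and 4 as lower, with Heyl, the third Hey gene, at -0.70 and Nrarp, a Notch feedback inhibitor, at -0.33. Of Heyl and the Hes and Hey members, Hey1 and Hes1 were thus higher in wild-type hippocampus, Heyl, Hey2 and Hes5 lower, and Hes6 did not pass. In knockout 19 of 116 entries passed as higher and 54 as lower, against 19.2% and 19.9% of all genes.

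Among the E proteins and proneural factors Neurod6 (4.20), Neurod2 (1.36) and Neurod1 (1.01), of excitatory neurons, were higher in wild-type hippocampus, and Tcf12 (-0.55), an E protein that Id proteins bind, was lower, 3 higher and 4 lower of 14. In knockout the same list passed as higher in 6 and lower in 1. Of all genes 17.5% passed as higher and 23.4% as lower in wild type, and 19.2% and 19.9% in knockout. The median tissue difference over all genes was -0.07 in wild type and 0.01 in knockout. These counts do not show a genotype difference, since 0 of 14 passed the test of the difference of effects.

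**Figure D5:**
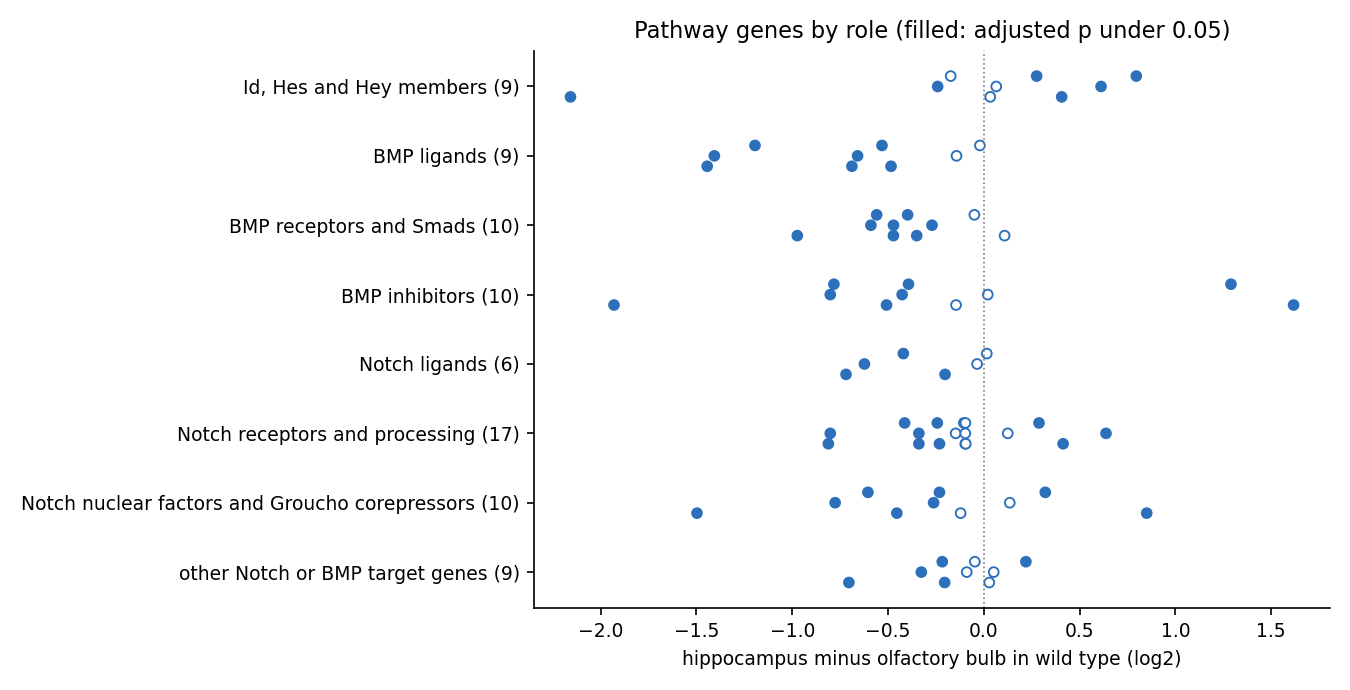
Hippocampus minus olfactory bulb in wild type (horizontal axis, log2) of the 9 members and of genes grouped by role, with the number measured in brackets; filled points passed at an adjusted p under 0.05. BMP ligands lie at or below -0.02; of the members Id2, Hes5 and Hey2 lie to the left of 0 and the other 6 to the right.

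Genes with the profile most like that of a member over the 12 arrays were found by the root mean square difference between log2 profiles, each centred on its own mean; most of this likeness is the tissue difference that the arrays share. For Id4 they were Rtn1 (0.0953), a reticulon of neurons, Galnt16 (0.0981) and the kinase gene Lrrk2 (0.105). Galnt16 also stood lower in knockout, at -0.27 in bulb and -0.23 in the mean of the tissues, without passing (adjusted p = 0.187 and 0.0886), and Rtn1 stood at -0.12 in the mean (adjusted p = 0.425). For Hes1 the nearest genes were Chrm1 (0.0922), a muscarinic receptor, Gpr37 (0.101) and Homer3 (0.107). For Hey2 they were the phosphatase gene Ptpro and the guidance gene Sema3a (0.149 each) and Pcbp3 (0.162), whose differences in wild-type tissues were -2.44, -2.23 and -2.46. The profile of Hey1 was nearest to Psma6 (0.0695), Rnf146 (0.0778) and Pycrl (0.0813), and that of Hes5 to Hhipl2 (0.0357), Galr2 (0.04) and Tesk2 (0.0445). Profiles of Id1, Id2, Id3 and Hes6 varied by little, with root mean square deviations from their own means of 0.142, 0.104, 0.109 and 0.125, against 0.366 for Id4. Their nearest genes were Gpr85 (0.0709), Zfp457 (0.0507), Stc1 (0.0605) and Itga3 (0.0659).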

How the data were processed

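The authors deposited log2 intensities per probe set, made with RMA and the oligo package per the submitters' processing notes. Tool versions, the genome build and joint or separate normalization of the tissues are not given in those notes. RMA equalises array distributions and compresses differences near background. The 35556 probe sets were named from the platform's annotation: 21789 have 1 symbol, 1621 several (not used) and 12146 none. The brightest probe set on average stood for each of 19938 genes. Arrays carry no read depth; their number limits the precision.

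limma 3.58.1 in R 4.3.3 fitted the 4 group means over 12 arrays with default eBayes and Benjamini-Hochberg adjustment over all genes at 0.05; for the mean of the tissues, each animal's values were averaged first. The animal code gave the tissues of an animal; the numbers in the titles join the tissues of some wild-type animals otherwise and were run as an alternative. Over all genes, deviations from group means correlated between the tissues of an animal with r of -0.255 to 0.116 (6 animals, joined by code). Joined by title number, r ran from -0.208 to 0.252, so these values do not decide between the pairings. Tests were checked on simulated data. Confidence intervals are at 95%.

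The members, the 11 pathway and 11 marker lists and the rule for named genes were chosen with earlier results of these data known. The rule names all members, Rasgrf2, list genes past the threshold (at most 6, or 4 between tissues) or the list's leading entries as examples, the 3 genes most like each member, and 5 measured genes on each side of a member that passed. Genes outside it are marked as such; clone and small RNA names count but are not printed. Alternatives were other fits, scalings, filters and probe set choices, a replicate block, and leaving out each array or animal.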

Additional observations from a re-analysis of the deposited data

How the results depend on the processing

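The Id4 difference kept its sign under all alternatives run. Its call in olfactory bulb held under 6 of 14 of them, with the 1 member called becoming 0 when only the bulb arrays were fitted, 0 when every probe set was tested (Id4 adjusted p = 0.0533), and 0 to 0 without single replicates. In the mean of the tissues the call of Id4 held under 6 of 13, becoming 0 with every probe set (adjusted p = 0.104) and 0 to 0 without single animals. In hippocampus Id4 passed under 0 of 14, with its smallest adjusted p of 0.0503 under array weights. The cause was not tested beyond the fewer arrays or more features tested in these fits. With the animal code as a replicate block 6 members passed between the wild-type tissues, as without it, and 5 with the titles' numbers, where Id1 was lost (adjusted p = 0.0507); as a random block it left the 0 and 1 members called in hippocampus and bulb, and the blocks changed no other call of a member. Between the tissues Id4, Hes1, Hey1 and Hey2 in wild type and Id4, Hes1 and Hey2 in knockout passed under 15 of 15 alternatives. Id2 in wild type passed with trend and robust moderation (0.0291) and Hey1 in knockout with arrays centred on their medians (0.0363).

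Signs turned only for differences that had not passed. Array weights gave Id2 0.056 in hippocampus and 0.0070 between the knockout tissues, and Id1 0.033 and Id3 0.00064 in the mean of the tissues. Centred arrays gave Hes6 -0.039 for the difference of effects and Hes5 0.029 between the knockout tissues. Without single replicates the hippocampal knockout difference ran from -0.089 to 0.022 for Id2, from -0.17 to 0.0031 for Id3 and from -0.0012 to 0.16 for Hey1, and that in bulb from -0.18 to 0.051 for Hes1. The difference of effects ran from -0.17 to 0.058 for Hes1 and from -0.077 to 0.083 for Hes6. Between the tissues Id3 ran from -0.031 to 0.15 and Hes6 from -0.044 to 0.084 in wild type, and Hes5 from -0.080 to 0.00087 and Hes6 from -0.043 to 0.12 in knockout. In the mean of the tissues Id1 ran from -0.071 to 0.044 and Id3 from -0.069 to 0.077.

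With 3 arrays a group, the standard errors of the members' knockout differences ran from 0.065 (Id4) to 0.110 (Hey2). Signals near or below the array median, as those of Hes1 in bulb and Hey2 in hippocampus, lie where RMA compresses differences.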
